A study of Mus musculus with 2 samples.

Results

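Of the 48295 Isl1 peaks called in mouse embryos, 2808 (5.81%, 95% Wilson interval 5.61 to 6.03%) lay more than 500 kb from the transcription start site (TSS) to which they were assigned, with a protein-coding gene as that closest gene. These 2808 regions, called desert peaks here, are the subject of this report. They made up 7.15% of the 39259 peaks assigned to a coding gene. The choice rested on the deposited distance to the closest RefSeq TSS and on a RefSeq identifier of a coding transcript, and no measured strength of binding entered it. A further 907 peaks beyond 500 kb had a noncoding RNA as the closest gene and were not counted.

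The study mapped Isl1 binding by chromatin immunoprecipitation and sequencing (ChIP-Seq) in C57BL/6 embryos between E8.25 and E9. Cardiogenic mesoderm and the heart region were fixed with 1% formaldehyde, 60 to 80 embryos were pooled, and the chromatin was sheared to 200 to 500 bp and precipitated with a monoclonal anti-Isl1 antibody. No genetic change is named for these embryos, and the matching input chromatin was not analysed here. The list was deposited with 1 ChIP sample, and whether replicates were intersected for it is not stated. It gives positions without heights, so neither replicate error nor depth of single peaks is known, and the intervals below cover counting error only.

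Isl1 is a LIM-homeodomain transcription factor of second heart field progenitors, which build the outflow tract, the right ventricle and parts of the atria. The protein also acts in motor neurons and other neurons. Homeodomains of this kind bind DNA with a TAAT core, and transcription factors often act from enhancers far from the promoter. Gene deserts are long stretches without coding genes. Some hold remote enhancers of developmental genes at their edges, and they are rich in interspersed repeats and poor in GC.

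The sequence at the middle of the desert peaks is shown first, because it was the property that most of them shared. In the following 2 windows, taken from mm9 on the plus strand and named by the assigned gene, capitals mark the longest uninterrupted run of purines (A and G) or pyrimidines (C and T). They are peaks of median width in 2 of the 3 deserts with the most desert peaks.
Cntnap5a, chr1:117010811-117011110: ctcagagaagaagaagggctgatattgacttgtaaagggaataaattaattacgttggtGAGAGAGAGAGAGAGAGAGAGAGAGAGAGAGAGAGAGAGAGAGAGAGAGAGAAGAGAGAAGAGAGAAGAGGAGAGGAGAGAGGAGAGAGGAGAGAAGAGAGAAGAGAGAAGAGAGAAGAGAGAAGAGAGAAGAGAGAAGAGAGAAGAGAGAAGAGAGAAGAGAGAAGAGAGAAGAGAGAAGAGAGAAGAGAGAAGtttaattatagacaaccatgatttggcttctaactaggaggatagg
Fam181b, chr7:101614789-101615088: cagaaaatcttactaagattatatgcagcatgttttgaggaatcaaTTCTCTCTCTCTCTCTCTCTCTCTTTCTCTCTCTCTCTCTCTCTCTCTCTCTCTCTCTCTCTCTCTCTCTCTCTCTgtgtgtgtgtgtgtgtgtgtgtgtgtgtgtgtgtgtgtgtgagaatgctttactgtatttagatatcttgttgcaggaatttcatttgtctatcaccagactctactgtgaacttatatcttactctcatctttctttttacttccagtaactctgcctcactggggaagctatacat
Each window was 300 bases long. The run measured 195 bases in the Cntnap5a window and 76 in the Fam181b window. Short units such as GA or its complement followed each other in tandem in these runs.

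Desert peaks without a run of 25 bases within 100 bp of the midpoint were few. The 3 examples below come from the 12 deserts with the most desert peaks, have no run anywhere in the peak, and belong to those made of sequence with many copies in the genome, so they do not stand for all such peaks. Here capitals mark TAAT or its complement ATTA.
Rag2, chr2:100015199-100015498: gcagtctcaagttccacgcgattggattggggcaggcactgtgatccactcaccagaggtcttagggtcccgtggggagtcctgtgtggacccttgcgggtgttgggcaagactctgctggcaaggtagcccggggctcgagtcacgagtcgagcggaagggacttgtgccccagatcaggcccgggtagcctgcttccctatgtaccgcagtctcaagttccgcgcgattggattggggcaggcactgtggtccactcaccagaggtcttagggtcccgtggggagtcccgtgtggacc
Cdh9, chr15:15390769-15391068: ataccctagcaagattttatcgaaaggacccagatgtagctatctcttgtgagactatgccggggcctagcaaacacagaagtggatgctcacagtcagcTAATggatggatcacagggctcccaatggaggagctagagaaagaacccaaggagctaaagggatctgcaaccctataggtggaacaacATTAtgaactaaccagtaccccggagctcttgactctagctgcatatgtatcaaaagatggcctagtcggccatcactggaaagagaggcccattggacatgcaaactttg
Pcdh17, chr14:83598890-83599189: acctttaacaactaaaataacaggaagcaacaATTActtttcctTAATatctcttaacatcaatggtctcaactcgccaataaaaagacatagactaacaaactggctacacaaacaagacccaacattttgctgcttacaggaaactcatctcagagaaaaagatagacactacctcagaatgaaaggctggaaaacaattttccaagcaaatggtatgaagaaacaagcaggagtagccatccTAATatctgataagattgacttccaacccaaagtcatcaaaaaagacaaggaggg
The Rag2 window had a GC content of 62.3% and no TAAT. The windows near Cdh9 and Pcdh17 held 2 and 3 TAAT sites, and neither of them was a simple repeat.

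The desert peaks lay at a median of 730 kb from their TSS, with an interquartile range of 596 to 974 kb. The smallest distance was 500.1 kb and the largest 2168 kb. Beyond 1 Mb lay 648 (23.1%), beyond 1.5 Mb 147 and beyond 2 Mb 9. The 2 peaks just inside the limit of 500 kb were assigned to Tbl1xr1 at 500.124 kb upstream and to Gm5803 at 500.141 kb downstream. The 2 just outside it were assigned to Wdr20rt at 499.966 kb and to Hsbp1 at 499.698 kb. The widths on both sides of the limit were alike, 438 and 344 bp inside against 374 and 415 bp outside. The 5 farthest desert peaks all lay between Olfm4 and Pcdh17 on chromosome 14. Of these, 4 were downstream of Olfm4, at 2048 to 2168 kb, and 1 was 2056 kb upstream of Pcdh17. Desert peaks lay upstream of the gene in 1340 cases (47.7%, interval 45.9 to 49.6%) and downstream in 1468. Among coding-assigned peaks at 100 to 500 kb, the upstream share was 44.2% (interval 43.2 to 45.1%).

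All 20 chromosomes other than Y carried desert peaks, and none of the 58 peaks on Y was among them. Their share of a chromosome's peaks ran from 2.44% on chromosome 10 to 9.14% on chromosome 14. Chromosome 1 had the largest number, 319, or 8.51% of its peaks.

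The name gene desert was checked against GENCODE genes of the same build, and it held for most of the regions but not for all. The body of a coding gene contained 304 desert peaks (10.8%, interval 9.73 to 12%), spread over 47 genes, of which 44 were longer than 500 kb. For at least 188 of the 304 this was the assigned gene itself, so that the peak lay in its own gene more than 500 kb from the start. The match was by name, and genes that GENCODE names otherwise, such as Lphn3 for Adgrl3, were missed. The genes with the most such peaks, chosen after their values were seen, were Macrod2 with 26, Ptprd with 25 and Cntnap2 and Opcml with 22 each. The body of Macrod2, a mono-ADP-ribosyl hydrolase, was 1998 kb long, and none of its 26 peaks was assigned to it. All 11 desert peaks of Flrt3, whose product is a leucine-rich repeat adhesion protein, lay inside another gene.

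The nearest start also depended on the annotation. Of the desert peaks, 2119 (75.5%, interval 73.8 to 77.0%) were more than 500 kb from every GENCODE coding TSS, and 689 were closer to one that the deposited assignment had not used. Within 10 kb of such a TSS lay 21. When TSSs of all GENCODE genes were counted, pseudogenes and noncoding RNAs included, the median distance was 148 kb and 402 desert peaks (14.3%) stayed beyond 500 kb. They were therefore far from coding genes in the main, and mostly not far from every annotated transcript.

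A desert was defined as the stretch between 2 neighbouring GENCODE coding TSSs that held at least 1 desert peak. Every coding transcript gave a TSS, so some deserts, such as those inside Ptprd, lay between 2 starts of 1 gene. In all there were 305 deserts with a median length of 1414 kb, ranging from 77.3 to 4996 kb. Of these, 236 were longer than 1 Mb and 73 longer than 2 Mb. The other 69 measured up to 1 Mb, where a GENCODE start cuts a stretch that the deposited assignment leaves whole. The median desert had 6 desert peaks and the richest 54. A single desert peak stood in 29 deserts. At least 10 were found in 102 deserts, which together held 1951 (69.5%), and at least 20 in 35 deserts, which held 1049 (37.4%). Over the 236 deserts above 1 Mb, the number of desert peaks rose with length (Spearman's rho 0.49, as a description, since the threshold alone leaves more room in longer deserts).

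**Figure D1:**
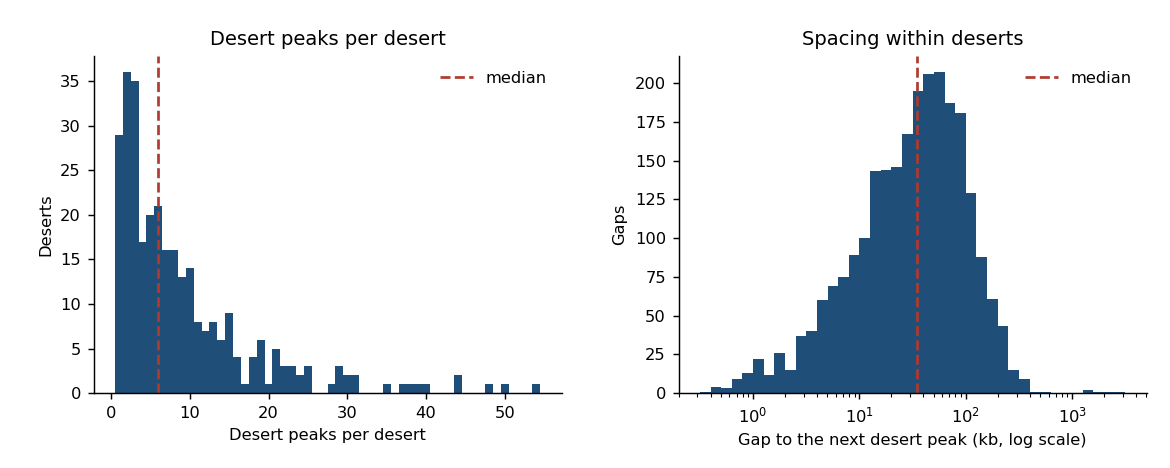
Left, number of deserts (vertical axis) by the number of desert peaks in each; right, number of gaps (vertical axis) by the distance in kb, on a log scale, from a desert peak to the next in the same desert. The dashed lines mark the medians, 6 desert peaks per desert and 34.9 kb between neighbours; the right panel has a long left shoulder, with 475 gaps under 10 kb.

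The genes at the 2 edges pointed the same way in 154 of the 305 deserts, which include those with the same gene at both edges. They pointed into the desert from both sides in 81, and in 68 both starts stood at the edges with the gene bodies facing away. The remaining 2 ran from the start of a chromosome to the TSSs of Xkr4 and Olfr161 and had no coding TSS on the left. In 136 deserts the peaks were divided between 2 assigned genes, in 168 a single gene received all, and 1 desert had more than 2 assigned genes.

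The 12 deserts with the most desert peaks held 491 (17.5%). The richest stretched over 4443 kb on chromosome 14 (chr14:80400109-84843370), between Olfm4, a secreted olfactomedin glycoprotein, and Pcdh17, a protocadherin of synaptic membranes. Its 54 desert peaks had a median width of 481.5 bp and stood 42.7 kb apart in the median. The gaps ran from 1.13 to 299.6 kb, so the row was uneven, and 52 of the 54 had a run. The next was the desert between Dsel, a dermatan sulfate epimerase-like gene, and Cntnap5a, a contactin-associated protein gene of neurons, on chromosome 1. It had 50 desert peaks over 3820 kb. Its peaks were narrower, with a median of 418.5 bp, at almost the same spacing of 42.1 kb.

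On chromosome 7, 48 desert peaks stood between the predicted genes Gm9934 and Gm9966, and the deposited list assigned them to Fam181b and Tenm4, a teneurin of cell adhesion and neuronal wiring. Chromosome 2 had 44 between Gm10800 and B230118H07Rik, assigned to Lrrc4c, a netrin-G ligand at synapses, and to Rag2, a subunit of the V(D)J recombinase. Another 44 stood between Nudt12, an NADH diphosphatase, and Efna5, the axon guidance ligand ephrin-A5, on chromosome 17. The desert of Cdh6 and Cdh9, both type II cadherins, held 40 over 3604 kb on chromosome 15. Here cadherin genes formed both edges.

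A second desert of chromosome 7, between Agbl1 and Ntrk3, the receptor of neurotrophin-3, held 39 over 2167 kb, with a median gap of 28.4 kb. Chromosome 8 had 38 between Gm1840 and Efnb2, the ephrin-B2 ligand of arterial endothelium and axon guidance; the assigned genes were Efnb2 and Slc10a2, a bile acid transporter. The desert of Ddx18, an RNA helicase, and Dpp10, an auxiliary subunit of potassium channels, on chromosome 1 held 37. These were the narrowest in the median among the 12 deserts, at 394 bp. The last 2 of the 12 had 31 each. That of Gm10110 and Pcdh9 on chromosome 14 contained 33 further peaks assigned to noncoding RNAs, and 13 of its desert peaks lay inside a gene body. That of Stim2, a calcium sensor of the endoplasmic reticulum, and Pcdh7 on chromosome 5 had all 31 assigned to the predicted gene Gm10440, and 22 further peaks assigned to noncoding RNAs.

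**Figure D2:**
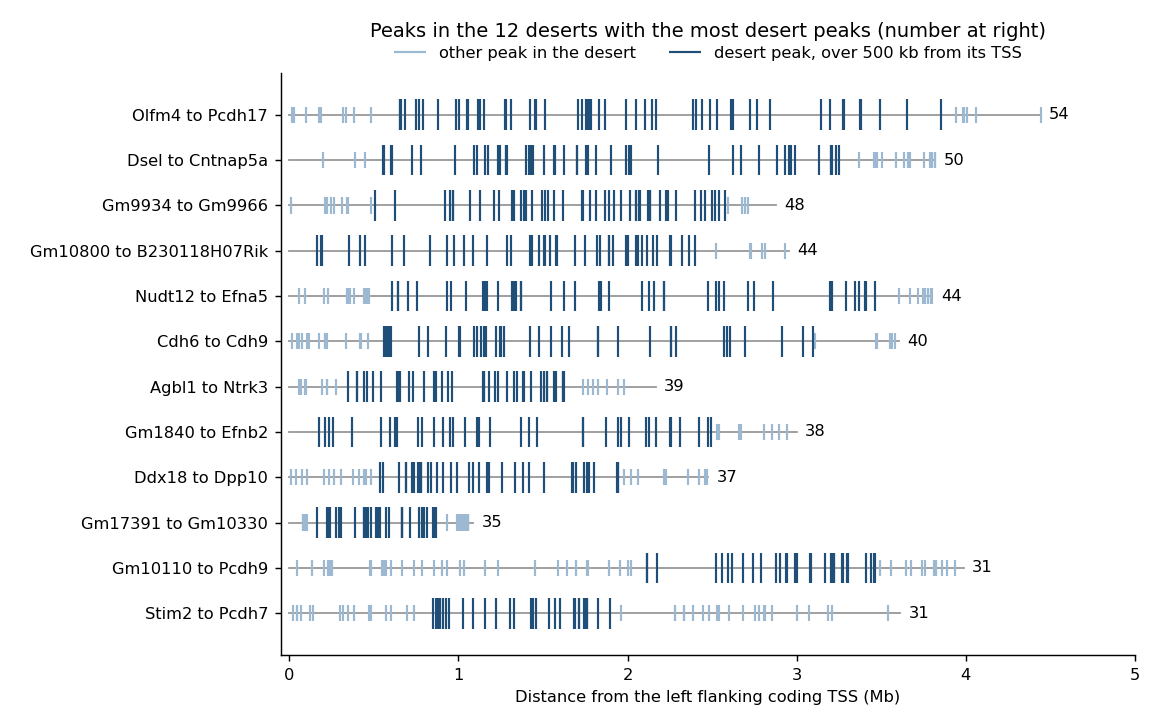
Position of every peak in the 12 deserts with the most desert peaks, as distance in Mb from the left flanking coding TSS; tall dark ticks are desert peaks, short light ticks other peaks of the list, grey lines the length of the desert, and the number at right counts the desert peaks. The desert from Gm17391 to Gm10330 packs 35 into 1087 kb, against 54 over 4443 kb in that from Olfm4 to Pcdh17.

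The desert ranked number 10 differed from the other 11 in density. It lay between the predicted genes Gm17391 and Gm10330 on chromosome 12 (chr12:23377853-24465130), was only 1087 kb long, and held 35 desert peaks assigned to the uncharacterized genes 2410018L13Rik and 9030624G23Rik. That was 32.2 desert peaks per Mb, against 7.77 to 18 in the others. Its outermost desert peaks lay 165.5 and 220.8 kb from the flanking GENCODE TSSs and counted through the deposited distance. In several of the others the 500 kb at both ends held no desert peak, which lowers this density. Peaks of any kind came to 49.7 per Mb, against 15.3 to 24.9. The median gap between desert peaks in the chromosome 12 desert was 11.2 kb, against 22.0 to 49.9 kb. GC content over 20 kb around its peaks averaged 45.6%, against 36.4 to 38.9%. It contained 110 purine or pyrimidine runs of 50 bp or longer, of which 64 (58.2%, interval 48.8 to 67.0%) lay under a peak, and in the other 11 this share was 28.0 to 38.6%.

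To describe the uniqueness of the sequence, the genome-wide copies of every 31-base word were counted in windows of 200 bases placed 1 kb to either side of each desert peak, a measure chosen after the density had been seen. In the chromosome 12 desert, 0 of 70 flanking windows had a median of 1 copy, which allows a share of up to 4.29% by a limit of 3 counts and 5.20% by the Wilson interval, both for counting error only and for windows that are independent, which these repeated windows are not. The median over the windows was 7 copies in the genome and, taken separately, 3 copies inside the desert itself, and 64 of the 70 windows recurred within the desert. Over all desert peaks, 4959 of 5616 flanking windows (88.3%, interval 87.4 to 89.1%) had a single copy. Of the 188 deserts with at least 5 desert peaks, 178 had at least 80% single-copy windows and 4 had under 50%. The share was 71.6% to 94.4% in the other 11 of the richest deserts. It was lowest in that of Lrrc4c and Rag2, where 22 of 88 windows recurred within the desert. In 14 deserts no flanking window was single-copy. They held 60 desert peaks and included 7 deserts on chromosome X and 4 on chromosome 12. How the aligner placed reads among such copies was not tested.

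Neighbouring desert peaks of a desert stood 34.9 kb apart in the median (interval 32.8 to 37.3 kb, 2503 gaps). The middle 50% of gaps ran from 13.7 to 71.0 kb and the mean was 55.2 kb. Under 1 kb were 30 gaps, under 5 kb 241 (9.63%), and over 200 kb 74 (2.96%). The closest pair, chosen for that property, lay 395 bp apart inside Ptprd, a receptor tyrosine phosphatase of synapses. The widest gap, 2520 kb, stood between Cntnap5b and Cdh20 on chromosome 1 and measured the distance between desert peaks only, not a stretch without any peak. The nearest peak of any kind was 18.3 kb from a desert peak in the median (interval 17.4 to 19.5 kb). Peaks at 100 to 500 kb from a coding TSS had theirs at 17.1 kb (16.7 to 17.7 kb), those at 10 to 100 kb at 16.4 kb (16.1 to 16.8 kb), those at 1 to 10 kb at 17.3 kb (16.8 to 18 kb) and those within 1 kb at 19.9 kb (18.3 to 21.6 kb). The medians of all 5 classes thus lay between 16.4 and 19.9 kb, and the interval of the desert peaks was above that of the class at 10 to 100 kb and overlapped the other 3.

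Density was then measured on the genome itself, in bins of 1 kb, by distance to the nearest GENCODE coding TSS. Sequence beyond 500 kb made up 9.35% of the genome, 239 Mb, and held 4040 peaks of any assignment. This came to 16.9 peaks per Mb (exact Poisson interval 16.4 to 17.4), against 19.8 (19.5 to 20.2) at 100 to 500 kb, 19.1 (18.8 to 19.3) at 10 to 100 kb, 17.2 (16.8 to 17.6) at 1 to 10 kb, 22.5 (21.3 to 23.7) up to 1 kb and 18.9 over the genome. Deserts were therefore not empty of peaks. Their density was below that of the neighbouring class beyond the counting interval, and its interval overlapped that of the class at 1 to 10 kb. Purine or pyrimidine runs of 50 bp or longer were also fewer, at 62.1 per Mb beyond 500 kb against 68.9 at 100 to 500 kb. The share of such runs under a peak was 31.9% (interval 31.1 to 32.6%) beyond 500 kb, 33.2% (32.8 to 33.7%) at 100 to 500 kb, 30% (29.7 to 30.3%) at 10 to 100 kb, 27.1% (26.6 to 27.7%) at 1 to 10 kb and 27.6% (26.0 to 29.2%) up to 1 kb. Over the genome it was 30.6% (30.3 to 30.8%), below the desert value. In steps of 100 kb, density fell from 19.1 per Mb at 500 to 600 kb to 16.3 at 600 to 700 kb and was 15.0 beyond 1.5 Mb.

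**Figure D3:**
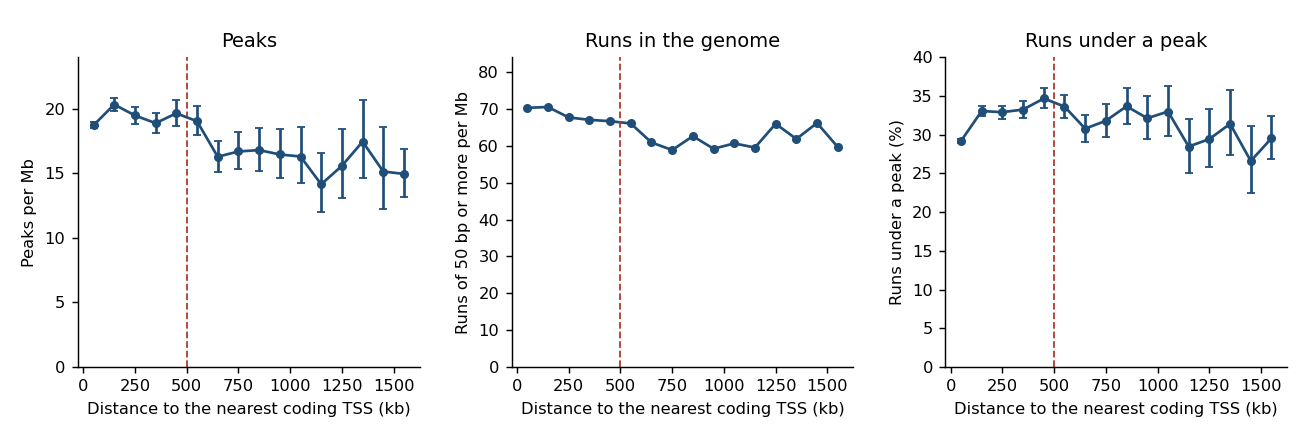
Peaks per Mb (left), purine or pyrimidine runs (50 bp or longer) per Mb (middle) and percentage of those runs under a peak (right) in steps of 100 kb of distance from the nearest GENCODE coding TSS, the last point standing for all sequence beyond 1500 kb. Bars are 95% exact Poisson or Wilson intervals and the dashed line marks 500 kb; peaks and runs both fell beyond 600 kb, to 16.3 peaks and 60.9 runs per Mb.

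Desert peaks had a median width of 450 bp (interval 442 to 457 bp) and ranged from 192 to 1338 bp. The other coding-assigned peaks had a median of 468 bp (466 to 470 bp), those at 100 to 500 kb of 464 bp (461 to 467 bp) and those within 1 kb of the TSS of 490 bp (482 to 500 bp). The desert peaks were narrower than the other coding-assigned peaks on 16 of 20 chromosomes. Beyond 1 Mb the median was 454.5 bp, close to the 449 bp between 500 kb and 1 Mb. Among desert peaks with a run of at least 25 bp, those with longer runs were wider, apart from the 2 shortest groups, whose intervals overlapped. This order is a description, since the run was sought in the whole peak and a wider peak leaves more room for it. The median width was 378 bp (361 to 412 bp) with a longest run of 25 to 50 bp, 388 bp (380 to 395 bp) with 50 to 100 bp, 460 bp (448 to 475 bp) with 100 to 150 bp, 490 bp (479 to 508 bp) with 150 to 200 bp and 560 bp (538 to 581 bp) with 200 bp or more. The 63 desert peaks with no run of 25 bp anywhere in the peak did not follow this order, with 495 bp (482 to 542 bp). The other coding-assigned peaks had 527 bp (518 to 534 bp) without such a run, 409 bp (406 to 411 bp) with 50 to 100 bp and 568 bp (563 to 573 bp) with 200 bp or more.

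The widest desert peak, of 1338 bp, stood 534 kb upstream of Flrt2, an adhesion protein that is needed for the integrity of the early epicardium. It had no run of 25 bases, its longest being 21. Others of the 5 widest were assigned to BC006965 with 1120 bp, Olfm4 with 1108 bp and Ncam2, a neural cell adhesion molecule, with 1106 bp.

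An unbroken stretch of 25 or more purines, or of pyrimidines, stood within 100 bp of the middle of 2704 desert peaks (96.3%, interval 95.5 to 96.9%) and in 3.70% of their windows at 1 kb. The share was 95.7% (95.3 to 96.1%) at 100 to 500 kb, 93.7% (93.4 to 93.9%) over all other coding-assigned peaks and 47.0% (44.1 to 50.0%) within 1 kb of the TSS. Most of the difference in this share thus lay between promoter peaks and the rest. The longest run in a desert peak had a median of 111 bases and reached 702 bases. It stood 34 bp from the middle of the peak in the median. Runs were purines or pyrimidines on the plus strand about equally often, with 49.7% pyrimidines.

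**Figure D4:**
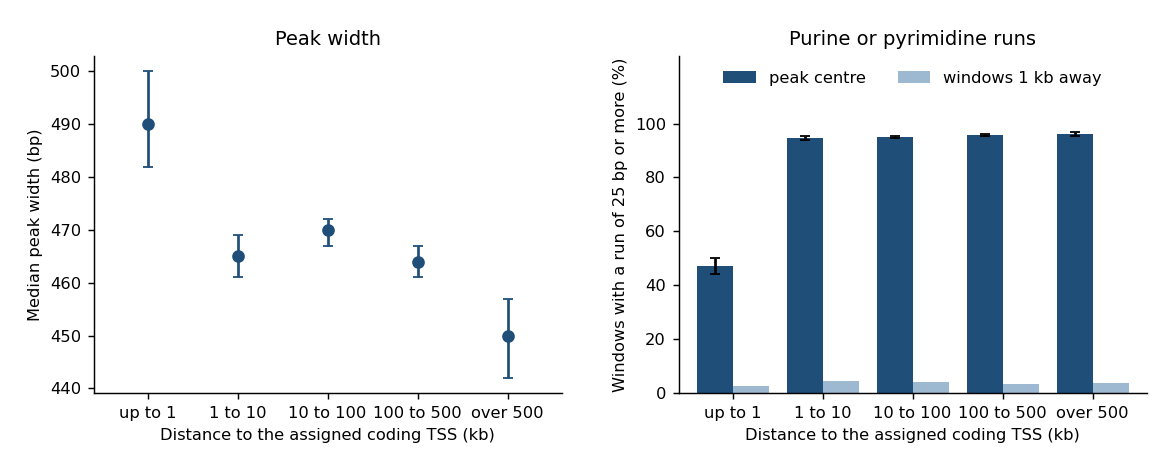
Median peak width in bp with 95% order-statistic intervals (left; the axis does not start at 0) and percentage of windows with a purine or pyrimidine run of at least 25 bp (right; dark bars peak centres with 95% Wilson intervals, light bars windows 1 kb away) by distance to the assigned coding TSS. Desert peaks, at far right, had a median of 450 bp and a run in 96.3%; only the class up to 1 kb, with 47.0%, was far from the others.

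Simple repeats of CT or GA, in either order and of 4 units or more, occurred within 100 bp of the midpoint in 62.6% of the desert peaks (interval 60.8 to 64.4%), against 55.2% (54.7 to 55.7%) of the other coding-assigned peaks and 3.86% of the windows 1 kb from a desert peak. Repeats of TG or CA of 6 units or more occurred in 19.3% (17.9 to 20.8%) against 15.3% (15.0 to 15.7%). The tandem GGAA or TTCC of 3 units was as frequent in desert peaks, 12.5% (11.4 to 13.8%), as in the others, 12.9% (12.6 to 13.3%). The desert peaks thus had more of the alternating repeats than the other coding-assigned peaks together. At 100 to 500 kb the shares were 58.9% (58.0 to 59.8%) for CT or GA and 16.8% (16.1 to 17.5%) for TG or CA. In the 907 noncoding-assigned peaks beyond 500 kb they were 60.5% (57.3 to 63.7%) and 17.4% (15.1 to 20.0%). Both of these last intervals overlapped those of the desert peaks. The median GC content of the 20 kb around desert peaks was 37.6% against 42.4% around the other coding-assigned peaks.

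TAAT or ATTA, the letters of the homeodomain core, stood within 100 bp of the midpoint in 40.5% of the desert peaks (interval 38.7 to 42.3%) and in 84.2% of their windows at 1 kb, which have the same length. In the other coding-assigned peaks the share was lower, 34.7% (34.2 to 35.2%), and so it was in their windows at 1 kb, 72.2%. A run of purines or pyrimidines cannot hold either word, as each has both kinds of base. Desert peaks with a run near the midpoint had TAAT or ATTA in 39.8% (38.0 to 41.7%). The 104 without one had it in 58.7% (49.0 to 67.6%) and in 82.7% of their windows at 1 kb. How far the runs account for the shares was not tested. The longer word CTAATG or its complement CATTAG, which contains that core, stood in 49 desert peaks (1.75%, 1.32 to 2.30%) and in 9.31% of the windows 1 kb from desert peaks. For this longer word the share was higher in the other coding-assigned peaks, 2.61% (2.45 to 2.78%). The 907 noncoding-assigned peaks beyond 500 kb had it in 2.43% (1.61 to 3.65%) and TAAT or ATTA in 42.1% (38.9 to 45.4%). Both intervals overlapped those of the desert peaks. Of the 49, 2 lacked a run near the midpoint, as did 104 of all 2808.

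The 104 desert peaks without a run within 100 bp of the midpoint had a median width of 532 bp (interval 500 to 557 bp), against 444.5 bp (438 to 452 bp) for those with one. Some of the 104 held a run farther from the middle, since 63 desert peaks had none in the whole peak. The centres of the 104 were often repeated sequence. In 55 of the 104 (52.9%, interval 43.4 to 62.2%) the median 31-base word of the central 200 bases had at least 10 copies in the genome. This held for 37.5% (33.2 to 42.0%) of the 472 peaks without a run at 100 to 500 kb and for 5 of the 589 (0.849%) within 1 kb of the TSS. Words with a median of 1 copy filled 44 of the 104 centres. The Cdh9 window printed above had a median of 16504 copies, the largest of all 104. The Pcdh17 window had 3600 and the Rag2 window 2494.

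The desert peaks were assigned to 374 of the 11088 coding genes that had any peak, which is 3.37% of them. The numbers differed widely between genes, with a median of 5 desert peaks, 56 genes with 1 and 101 genes with at least 10. They lay only upstream in 173 genes, only downstream in 173 and on both sides in 28. Pcdh9, a protocadherin of the nervous system, had the most with 43 of its 72 peaks. Lrrc4c followed with 39 of 85, Olfm4 and Rag2 with 35 each, and Cntnap5a with 33 of 60. Dsel and Gm10440 had 31 each, Cdh11 and Tenm4 29 each and A330008L17Rik 28. Cdh11 is a cadherin of mesenchymal cells, and its 29 desert peaks lay downstream at 515 to 1635 kb. Most of the peaks of Rag2 (85.4%), Dsel (81.6%) and Olfm4 (79.5%) were desert peaks, against 45.9% for Lrrc4c.

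Genes of cell adhesion, many of them neuronal, had a desert peak most often among 8 gene lists. Of 31 cadherins and protocadherins with a peak, 15 (48.4%, interval 32.0 to 65.2%) had a desert peak, and together they had 206. Pcdh9 had 43, Cdh11 29 and Cdh6 26. Of 71 other neuronal adhesion and synaptic organiser genes, 31 (43.7%, 32.7 to 55.2%) had a desert peak, with Lrrc4c, Cntnap5a and Tenm4 first, at 39, 33 and 29. These 31 genes had 450 desert peaks, or 16.0% of all. Both lists stood far above the 3.37% of all coding genes with a peak. The lists were drawn up with earlier results of these data known, so their ranking is a description only.

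Axon guidance genes came next, with 13 of 36 (36.1%, interval 22.5 to 52.4%). Efna5 had 20 desert peaks and Efnb2 18, all downstream. Epha7, a receptor of ephrin-A ligands, had 18, of which 9 were upstream and 9 downstream. Of 65 ion channel and neurotransmitter receptor genes, 16 (24.6%, 15.8 to 36.3%) had a desert peak. Grm7, a metabotropic glutamate receptor, had 18, and Kcnj2, an inward rectifier potassium channel that sets the resting potential of cardiomyocytes, 10.

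Among 48 cardiac transcription factor and cofactor genes with a peak, 3 (6.25%, interval 2.15 to 16.8%) had a desert peak, an interval that includes the 3.37% of all coding genes. Nr2f1, a COUP-type nuclear receptor, had 21, all upstream between 504 and 1342 kb, and 20 of them had a run. Nr2f2, its paralogue and a factor of atrial identity, had 5, all upstream between 500.4 and 662 kb. Isl1 itself had 3 of its 33 peaks in the desert downstream of it, between 534 and 591 kb, with a median width of 556 bp, and each of the 3 had a run.

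Other developmental transcription factors had 10 of 113 (8.85%, interval 4.88 to 15.5%). Maf, a bZIP factor, had 9, all of them inside a coding gene body. Dach1, a transcriptional cofactor of eye and limb development, had 7, all downstream. Of 104 signalling genes 6 (5.77%, 2.67 to 12%) had a desert peak. Acvr2a, a type II activin receptor, had 14 of its 19 peaks there, all upstream and up to 1541 kb away. Erbb4, the neuregulin receptor of ventricular trabeculation, and Inhba, the activin A subunit, had 5 each, and those of Erbb4 lay inside a gene body. In the list of 18 sarcomere and contractile genes with a peak only Myom2, a protein of the M-band, had a desert peak, and it had 1. Over all 8 lists, 937 desert peaks (33.4%) were assigned to a list gene.

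**Figure D5:**
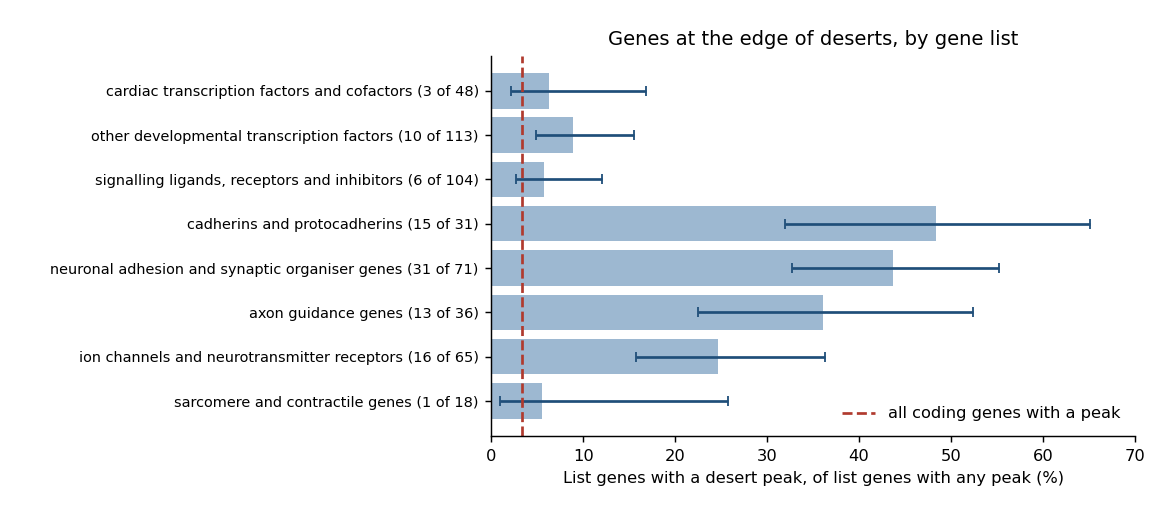
Percentage of the genes of each list with at least 1 desert peak, among list genes with any peak; bars are the percentages, lines 95% Wilson intervals, numbers in brackets the genes, and the dashed line the 3.37% of all coding genes with a peak. Cadherins (48.4%) and neuronal adhesion genes (43.7%) stood highest, and the intervals of the cardiac factor, signalling and sarcomere lists include the dashed line. The lists were drawn up with earlier results of these data known.

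The length of the intervals beside the genes also differed between the lists. Of the 10009 coding genes with a peak that were found by symbol in GENCODE, 453 (4.53%, interval 4.14 to 4.95%) adjoined an interval over 1 Mb without a coding TSS. Of the 31 cadherins and protocadherins 18 did (58.1%, 40.8 to 73.6%), of 65 neuronal adhesion genes 32 (49.2%, 37.5 to 61.1%), of 36 axon guidance genes 15 and of 65 channel and receptor genes 20. So did 19 of 108 other developmental factor genes (17.6%, 11.6 to 25.8%), 7 of 48 cardiac factor genes (14.6%, 7.25 to 27.2%), 8 of 104 signalling genes (7.69%, 3.95 to 14.4%) and 2 of 18 sarcomere genes. The first 6 of these 8 lists thus had more genes beside long intervals than all coding genes, whether or not the intervals held peaks. Among the genes that adjoined such an interval, a desert peak was assigned to 257 of all 453 (56.7%, 52.1 to 61.2%), to 14 of the 18 cadherins (77.8%, 54.8 to 91.0%), to 23 of the 32 neuronal adhesion genes (71.9%, 54.6 to 84.4%), to 12 of the 15 axon guidance genes (80.0%, 54.8 to 93.0%), to 15 of the 20 channel and receptor genes (75%, 53.1 to 88.8%), to 2 of the 7 cardiac factor genes (28.6%, 8.22 to 64.1%), to 4 of the 8 signalling genes and to 1 of the 2 sarcomere genes. For the 332 such genes on no list the share was 54.5% (49.1 to 59.8%), and the intervals of these 7 lists overlapped that interval. Those of the cadherins, neuronal adhesion and axon guidance genes began just above the 54.5%. The list of other developmental factors stood below the genes on no list, with 5 of 19 (26.3%, 11.8 to 48.8%). Genes with another name in GENCODE were not matched, and of 71 neuronal adhesion genes with a peak 65 were found. Whether the gene lists differ in binding beyond the length of the neighbouring interval was not tested.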

How the data were processed

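Isl1 ChIP-Seq peaks deposited with 1 embryo sample were analysed. Per the methods of the study and the labels, the authors aligned reads to mm9 (Bowtie2), discarded duplicates (Picard 1.136), called peaks (MACS), left out those on the ENCODE blacklist and gave each the nearest RefSeq TSS. The deposited values are positions and signed distances in bp, with gene names and no height, p-value or read count, so depth is unknown. Whether replicates were intersected for the list is not given in the sources used here. A repeated header row was dropped. The deposited starts were read as counted from 1, since their base is not stated.

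Desert peaks were those over 500 kb from a TSS with an NM_ identifier. The members and gene lists were chosen with earlier results of these data known. Midpoints were placed on the mm9 genome (NCBIM37) and its GENCODE annotation. A desert was the interval between neighbouring TSSs of coding transcripts, or from a chromosome start to the first TSS, that held a member. Runs, repeats and TAAT were sought within 100 bp of the midpoint and in windows of the same length 1 kb to either side. Genomic runs counted as bound when a peak covered at least 1 bp. Genome-wide copies were counted for 31-base words on both strands. Shares have Wilson, rates exact Poisson and medians order-statistic intervals at 95%. No test was made, since peaks of 1 sample are not replicates. Named were the 12 deserts and 10 genes with the most members, the 5 farthest and 5 widest members, 2 peaks on either side of the limit, all cardiac factors with a member and the top 3 genes of other lists; genes named by position inside gene bodies, close pairs and copy numbers were chosen after their values were seen. Sequences were those of median-width members of the 3 top deserts and of members without a run in the 12 top deserts. Some genes and sequences that these rules select are not reported here. Functions were tested on simulated data. The work used scipy 1.17.1, pandas 2.3.3, numpy 2.4.6 and matplotlib 3.10.9 under Python 3.11.15.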

Additional observations from a re-analysis of the deposited data

How the results depend on the processing

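Of 107 alternative values for 8 results, 95 stayed within 1.5 times the count or within the 95% interval of the reported value. Most of the 95 left out a single chromosome, which removes little of the list, so their number is no measure of robustness. The 12 that moved all came from the other settings. The number of desert peaks was 1334 with a limit of 750 kb and 648 with 1000 kb, and 1277 or 586 when only peaks wider than the median or the upper quartile of the list were kept. The distance to the nearest peak of any kind, on the closer side, had a median of 18.3 kb. This is another measure than the 34.9 kb to the next desert peak, and the smaller of 2 gaps is shorter by construction. The share with a run was 93.5% among desert peaks wider than the median, 97.4% and 93.8% with runs of at least 15 and 40 bp, and 97.8% when the run could stand anywhere in the peak. Peaks per Mb beyond 500 kb were 17.6 when TSSs of all annotated genes were used. The share of genomic runs under a peak was 19.8% for runs of at least 30 bp and 50.4% for at least 100 bp. Leaving out each chromosome in turn gave a median gap of 34.5 to 35.5 kb, a median width of 449 to 453 bp, 16.7 to 17.3 peaks per Mb and a run in 96.1 to 96.4%. The causes of these shifts were not tested, beyond the alternatives that keep fewer peaks, other runs or the closer side by construction. No paired analysis was possible because a single ChIP list was analysed. Without heights, input or replicates, the list limits every statement to the presence of a called peak, and the closest gene is a name for a position, not a regulated target.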
